A study of Homo sapiens with 12 samples.

Results

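NFIL3, HLF, DBP and TEF were described by the accessible chromatin around them in KO-52 cells. A region was counted with a gene if it overlapped the gene body or 50 kb on either side, which gave 89 regions of 355515 in the series: 24 for NFIL3, 18 for HLF, 28 for DBP and 19 for TEF. KO-52 is an established human line of acute myeloid leukemia (AML) whose CEBPA alleles are both mutated. It had been transduced with p42, the full-length C/EBPα isoform, with p30, the shorter isoform, or with an empty vector (EV), so that all 3 lines carried the mutated alleles. For long-term expression in KO-52, the study's methods describe isoforms fused to ERT2, which enter the nucleus when hydroxytamoxifen is added. By those methods, empty vector controls received hydroxytamoxifen too. The sample titles name neither the fusion nor this drug. Each line was kept in DMSO or treated with tunicamycin (Tm) at 2 µg/mL, which blocks N-glycosylation and induces endoplasmic reticulum stress. The study's text gives the treatment as 8 h. ATAC-seq, in which a transposase cuts open DNA, was done on 50000 nuclei in 2 replicates per condition, and the peaks used here were called on the pooled replicates, giving 6 lists with no spread between replicates and therefore no test.

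The 4 genes encode basic leucine zipper factors that bind the same DNA element, the D-box. DBP, TEF and HLF form the PAR family of activators, named for a region rich in proline and acidic residues, and NFIL3 (E4BP4) represses through the same sites. DBP and TEF are outputs of the circadian clock, in which CLOCK and BMAL1 act through E-boxes, while HLF marks hematopoietic stem cells and NFIL3 is needed for natural killer cell development. C/EBP proteins are basic leucine zipper factors too, and a site that joins part of a D-box to part of a C/EBP site can be read by both.

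The lists held 187704 peaks in EV with DMSO, 201280 in EV with Tm, 207679 in p30 with DMSO, 187958 in p30 with Tm, 254239 in p42 with DMSO and 221501 in p42 with Tm. Their estimated depth ran from 22250000 tags in EV with DMSO to 29980000 in p42 with DMSO. The deepest list holds the most peaks. A peak was ranked within its own list by −log10 q, and this rank is given as a percentile, where 100 is the strongest peak. Distances in kb run from the summit of a region to the nearest start site of the gene in GENCODE. A missing peak says only that a region did not pass the caller at that depth, and a pooled list cannot tell more cells with an open region from more cutting per cell. Of markers for the myeloid blast identity, 8 of 8 had a promoter peak in all 6 lists, while GATA1 and HBB had none. CD3E did have a promoter peak in all 6 lists. Of the 4 markers of tissues other than blood, none had one in the EV and p30 lists, while ALB had one in both p42 lists and MYOD1 in p42 with DMSO.

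The sequences below carry the motifs in the regions the results turn on. All are from hg38, on the strand of the gene, with the matched letters in capitals. The first is 4.4 kb inside NFIL3, in an intron, at chr9:91419376-91419490, with an ATF4 match (TGATGCAA) followed by an AP-1 match (TGACTCA):
NFIL3 intron: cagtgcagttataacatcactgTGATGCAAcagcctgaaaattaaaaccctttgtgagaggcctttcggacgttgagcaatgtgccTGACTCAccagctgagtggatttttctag
The second is the sequence just before the upstream start site of NFIL3 in RefSeq, at chr9:91424627-91424876, with a match to the hybrid of a D-box and a C/EBP site (TTACGCAA):
NFIL3 upstream promoter: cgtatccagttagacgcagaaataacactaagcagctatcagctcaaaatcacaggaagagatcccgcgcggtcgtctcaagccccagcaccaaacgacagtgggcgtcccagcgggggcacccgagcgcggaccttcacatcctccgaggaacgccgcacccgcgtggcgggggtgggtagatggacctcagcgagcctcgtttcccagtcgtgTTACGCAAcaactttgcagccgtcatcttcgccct
The next are the C/EBP match (TTGCGCAA) at chr9:91424093-91424148 and the D-box match (read here as TTACATAA) at chr9:91423466-91423495, both in the main promoter region of NFIL3:
NFIL3 promoter, C/EBP: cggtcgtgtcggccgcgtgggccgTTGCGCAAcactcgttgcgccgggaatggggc
NFIL3 promoter, D-box: cggggcattcaTTACATAAacttttgctgc
Downstream of NFIL3, at chr9:91372051-91372107, a weak region seen in 1 list holds the other hybrid match:
NFIL3 downstream: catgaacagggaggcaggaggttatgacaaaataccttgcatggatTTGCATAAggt
For HLF, a region downstream of the gene holds a composite C/EBP:AP-1 match, read as TTGCAACA, at chr17:55351426-55351481, and an upstream region holds 3 E-boxes (CACGTG) within chr17:55238375-55238498:
HLF downstream: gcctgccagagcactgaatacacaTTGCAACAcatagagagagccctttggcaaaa
HLF upstream: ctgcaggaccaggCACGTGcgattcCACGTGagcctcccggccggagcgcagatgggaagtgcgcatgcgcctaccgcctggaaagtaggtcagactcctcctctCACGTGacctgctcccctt
For DBP, 2 E-boxes lie at the start site inside the gene, at chr19:48634548-48634577 and chr19:48634683-48634712, and both windows overlap exons of DBP in GENCODE:
DBP inner start site, first: gcaggcgtcagCACGTGactcggccctgaa
DBP inner start site, second: cattcctgcgcCACGTGagtcctcccatcc
For TEF, an E-box precedes the inner start site, at chr22:41381719-41381784:
TEF inner promoter: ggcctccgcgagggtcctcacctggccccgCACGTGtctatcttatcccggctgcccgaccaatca

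The 4 gene windows were open in every condition. Of the 89 regions, 42 had a peak in all 6 lists, a share of 47.2% against 32.2% of all regions in the series. In 1 list alone there were 21 (23.6%, against 34.3% of all). The promoters of NFIL3, HLF, DBP and TEF had a peak in all 6 lists, and of the 20033 protein-coding genes 79.1 to 82.1% had a promoter peak in a given list. The 42 shared regions had a median best percentile of 86.5, and the 21 regions found in 1 list had a median of 12.4. The regions found in 1 list were mostly weak peaks.

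By −log10 q, the main promoter regions of TEF and DBP ranked above those of NFIL3 and HLF in every condition and varied less. Over all protein-coding genes with a promoter peak, the median best promoter percentile was between 89.2 and 91.6 in the 6 lists. TEF was above this median in every list and DBP was near it, while NFIL3 and HLF were below it in every list. By fold enrichment the order did not hold for DBP, which was at 64.0 to 71.2, with HLF at 65.1 to 84.9, NFIL3 at 59.7 to 75.1 and TEF at 81.7 to 88.1. That of TEF, at its inner start site (chr22:41381111-41382313), had percentiles of 94.7 in EV with DMSO, 96.5 in EV with Tm, 97.3 in p30 with DMSO, 96.1 in p30 with Tm, 94.4 in p42 with DMSO and 96.2 in p42 with Tm. That of DBP (chr19:48637295-48638476), which is also within 1000 bp of a start site of CA11, lay between 89.6 and 93.7. Both are promoters of clock output genes, and their 6 values spanned 2.9 and 4.1 points.

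The promoter region of NFIL3 (chr9:91423385-91424302) was at 73.9 in EV with DMSO, 76.2 in EV with Tm, 75.8 in p30 with DMSO, 78.5 in p30 with Tm, 86.1 in p42 with DMSO and 73.8 in p42 with Tm. The highest of these values was in the deepest list, and the other 5 lay within 5 points of each other. At its summit it had 23, 28, 25, 28, 35 and 26 tags in the same order. The promoter region of HLF (chr17:55264767-55265127) was at 72.3, 78.1, 64.4, 62.8, 81.0 and 82.5. It was lowest in the 2 p30 lists, also with equal list lengths, by fold and among regions in all 6 lists. Its 17, 20, 15, 13, 21 and 22 tags were 7.6, 8.0, 5.7, 5.6, 7.0 and 8.6 per 10000000 tags, and the 95% Poisson intervals, from 3.0 to 9.6 in p30 with Tm to 5.4 to 13.1 in p42 with Tm, all overlap.

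**Figure D1:**
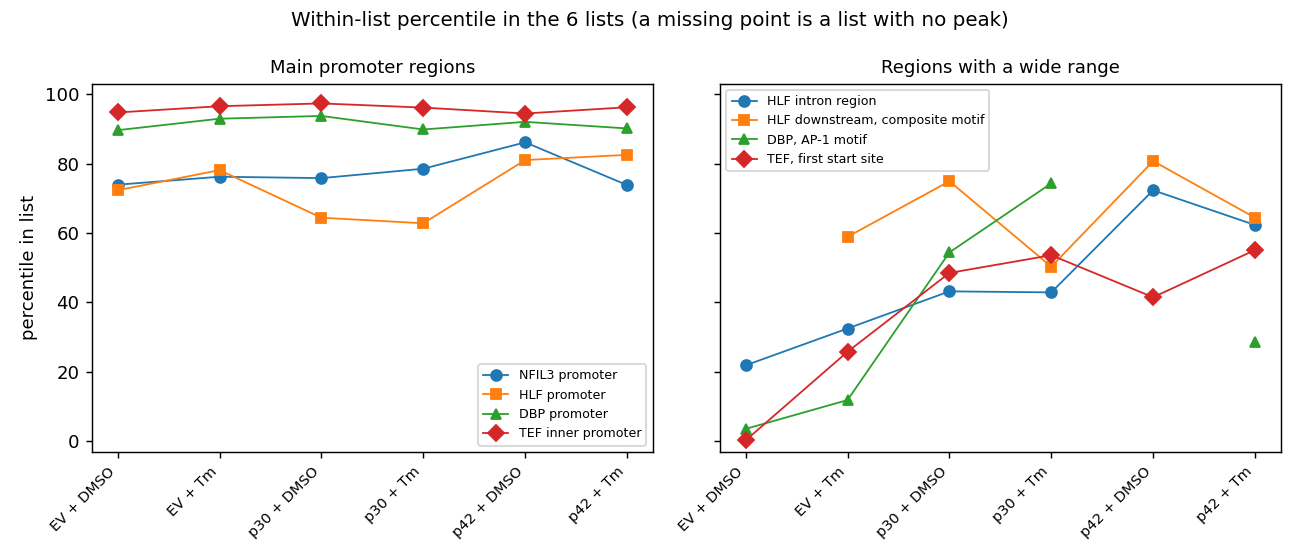
Percentile within the list (vertical axis) in each of the 6 lists (horizontal axis), for the main promoter region of each gene (left) and for 4 other regions (right). The DBP and TEF promoters lie above 89 throughout, whereas the 4 regions on the right run from 0.3 to 80.7.

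The region that stood apart in its response to tunicamycin was in the intron of NFIL3, 4.4 kb inside the gene (chr9:91419316-91419701). Its percentile was 14.9 in EV with DMSO and 45.6 with Tm, 14.2 in p30 with DMSO and 52.7 with Tm, and 27.8 in p42 with DMSO and 65.5 with Tm. All 3 Tm values were above all 3 DMSO values, by 30.7, 38.5 and 37.7 points within the lines. Among the 114533 regions of the series with a peak in all 6 lists, 133 (0.116%) were at least 20 points higher with Tm in all 3 lines, and this was the only one of the 42 member regions among them. The opposite, at least 20 points lower in all 3 lines, was found for 0 of the 42 and for 0.387% of all.

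Its summit had 10 tags in EV with DMSO and 16 with Tm, 10 in p30 and 17 with Tm, and 13 in p42 and 21 with Tm. Scaled to depth, this was 4.5 per 10000000 tags (95% exact Poisson interval 2.2 to 8.3) and 6.4 (3.6 to 10.3) in EV, 3.8 (1.8 to 6.9) and 7.4 (4.3 to 11.8) in p30, and 4.3 (2.3 to 7.4) and 8.3 (5.1 to 12.6) in p42. The intervals overlap within each line. Summed over the lines, the 33 DMSO tags and 54 Tm tags correspond to 4.19 (2.88 to 5.88) and 7.33 (5.51 to 9.57) per 10000000, a ratio of 1.75. The summed intervals overlap as well. The median ratio over all regions with a peak in 6 lists was 1.03, with 95% of them between 0.74 and 1.39, and over the 42 member regions it was 1.01. That range covers regions of any tag count, not only those with as few tags as this one. The Poisson intervals cover counting error only, and the region was singled out after its values were seen.

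The AP-1 match in this region lies 2 bp from the summit and the ATF4 match 66 bp from it. ATF4 is the main transcription factor of the integrated stress response, and AP-1 denotes dimers of the FOS and JUN families. Of all 133 regions that rose in the same way, 6 (4.51%) had an ATF4 match within 100 bp of the summit and 18 (13.5%) an AP-1 match, against 0.892% and 10.3% of the regions with a peak in all 6 lists. Both matches together were found in 2 of the 133 and in 125 of the 114533. The NFIL3 region itself is included in each of these counts. Whether either factor bound there was not measured in these files.

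A second NFIL3 intron region, 2.2 kb inside the gene (chr9:91421260-91421706), had percentiles of 3.4 and 65.8 in EV with DMSO and Tm and of 3.1 and 25.2 in p42, while in p30 it had no peak with DMSO and was at 47.7 with Tm. Its tags were 9 and 23 in EV, 10 and 13 in p42, and 17 in p30 with Tm. It held no match to the ATF4 or AP-1 letters within the region or within 100 bp of its summit. Here too the Tm value was above the DMSO value in EV and p42, and p30 had a peak with Tm alone, but the 95% intervals of 4.0 (1.8 to 7.7) and 9.2 (5.8 to 13.7) per 10000000 tags in EV overlap. The NFIL3 promoter region was at 10.54 tags per 10000000 (8.39 to 13.06) over the DMSO lists and 11.13 (8.85 to 13.82) over the Tm lists.

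**Figure D2:**
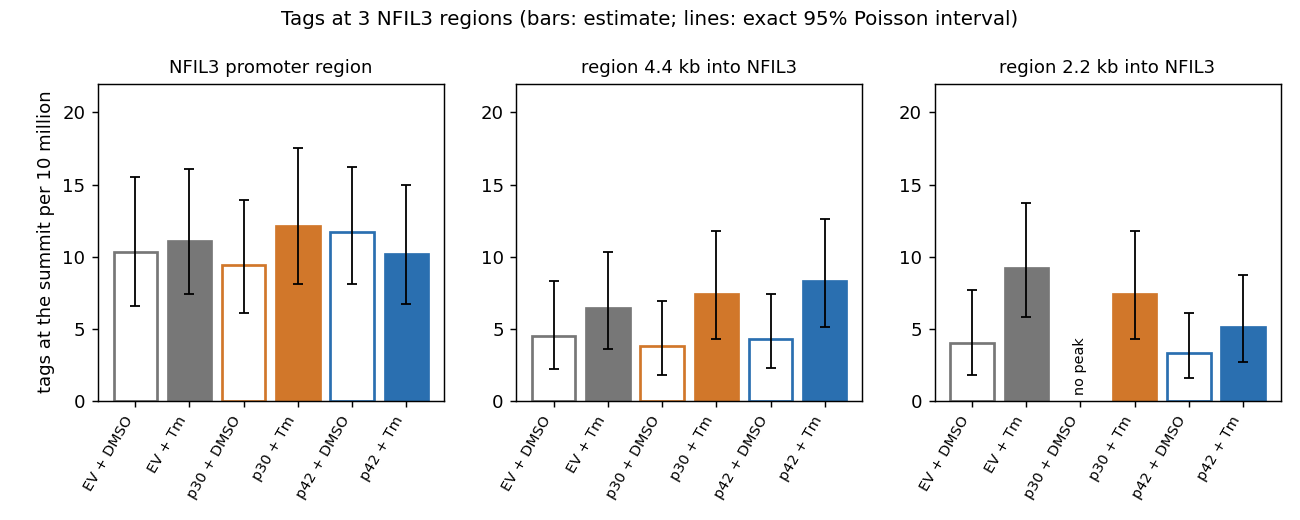
Tags at the summit per 10000000 tags (vertical axis) in the 6 lists (horizontal axis) for the NFIL3 promoter region and 2 regions inside the gene, as bars with exact 95% Poisson intervals, open for DMSO and filled for Tm. In the region at 4.4 kb the Tm bars reach 6.4 to 8.3 and the DMSO bars 3.8 to 4.5, while the promoter bars show no such step.

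As a set, the NFIL3 regions did not go up with tunicamycin in every line. Among those with a peak under both treatments, the median difference, Tm minus DMSO, was 4.8 points in EV, -4.3 in p30 and -10.5 in p42. Over all regions it was 0.8, -1.8 and -2.9. An intergenic region 45.1 kb downstream (chr9:91378631-91378884) was at 66.2 and 20 in EV, 43.2 and 20.9 in p30, and 21.0 and 1.6 in p42 with DMSO and Tm, and in EV it went from 12 tags to 6. It had the largest range of the 42 shared regions, 64.6 points, from 12 tags in EV with DMSO to 4 in p42 with Tm. A region 19.7 kb downstream (chr9:91403957-91404207) was 27.8 points higher with Tm in EV, 15.8 points lower in p30 (a difference of -15.8) and 6.1 points higher in p42. The strongest other regions of the window were at the promoter of AUH, a neighbouring gene, with a median percentile of 87.0, in the intron 12.6 kb inside NFIL3, with a median of 71.4, and upstream of NFIL3 at chr9:91433283-91433451, with a median of 67.9. Of the regions that a list lacked, one 20.4 kb downstream was at 61.1 in p30 with DMSO and at 20.9 to 34.2 in the 4 other lists that had it, and one 15.8 kb downstream was at 53.3 in p42 with DMSO and at 0.1 to 16 in 3 other lists.

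NFIL3 had more peaks in p42 with DMSO than in any other list. Of its 24 regions, 21 had a peak in p42 with DMSO against 14 in EV with DMSO, 14 in EV with Tm, 14 in p30 with DMSO, 13 in p30 with Tm and 15 in p42 with Tm. The whole series had the same excess, with a peak in p42 with DMSO for 69.3% of all regions and in the other lists for 49.4 to 56.8%. The NFIL3 share in p42 with DMSO, 87.5%, had a 95% Wilson interval of 69.0 to 95.7, which includes that of the series. When every list was cut to its strongest peaks at 1 common length, a setting added after the values were seen, the counts became 13 in p42 with DMSO and 12 to 14 in the others. With a threshold scaled to the shallowest list, also added then, p42 with DMSO still had the most, 17 against 13 or 14. Of the 24, 5 were in p42 with DMSO alone, and over the 4 genes 8 of 89 regions (8.99%) were, against 13.3% of all regions.

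The NFIL3 regions found in p42 lists alone include those with hybrid sites. The region at the upstream promoter (chr9:91424686-91424782) had a peak in p42 with DMSO alone, at percentile 13.9 with 12 tags. It lies inside the RefSeq promoter sequence printed above, and the hybrid match lies 76 bp from its summit, outside the called peak. The downstream region with TTGCATAA was also in p42 with DMSO alone, at percentile 8.7 with 5 tags. Both hybrid regions rank below the peaks that are kept in this deepest list at the common length. A further region in that list alone, 11.3 kb upstream (chr9:91435123-91435188), was at 51.5 with 9 tags. Regions 47.5 and 28.7 kb downstream were found in both p42 lists alone, at 51.5 and 33.9 with DMSO and 21.2 and 16.4 with Tm.

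Peaks shared by both lists of a line and absent from the other lines had shares near those of the whole series. For p42 there were 4 of 89 (4.49%, against 4.58% of all regions), 2 at NFIL3, 1 at DBP and 1 at TEF. For p30 there was 1, downstream of HLF (1.12%, against 0.617%), and for EV there were 0 (against 0.558%). None had a peak in all p42 and p30 lists and in no EV list, against 0.626% of all regions. In p30 with DMSO alone there were 7 regions (7.87%, against 5.46%), with percentiles from 3.7 to 37.7.

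HLF, the family member tied to stem cells, had the strongest of the regions that EV lacked in DMSO. A region downstream of the gene, 32.5 kb from its nearest start site (chr17:55351354-55351496), had no peak in EV with DMSO and was at 58.9 in EV with Tm, 74.9 in p30 with DMSO, 50.3 in p30 with Tm, 80.7 in p42 with DMSO and 64.4 in p42 with Tm. It had 11, 15, 9, 18 and 12 tags in these lists. With a −log10 q of at least 10 required where a peak was present, it was the only one of the 89 regions to be present in p42 or p30 and absent from EV in DMSO, at 17.5 and 14.6 on that scale. Its composite C/EBP:AP-1 match is 49 bp from the summit, a match that 1.17% of all regions had. In both isoform lines the Tm value was below the DMSO value, while in EV the peak was found with Tm alone.

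An HLF intron region (chr17:55302975-55303168) was highest in the p42 lists. Its percentiles were 21.9 and 32.5 in EV, 43.2 and 42.9 in p30, and 72.3 and 62.3 in p42 with DMSO and Tm. With 6 and 7 tags in EV, 8 and 8 in p30, and 14 and 11 in p42, the scaled values were 2.7 (1.0 to 5.9) in EV with DMSO and 4.7 (2.6 to 7.8) in p42 with DMSO, which overlap. The order of the lines was the same in both treatments. The strongest HLF region lay downstream of the gene, 38.0 kb from its nearest start site (chr17:55356801-55357166), between 89.8 and 98.4 in the 6 lists, and no other protein-coding gene lies in the HLF window. An HLF intron region (chr17:55296028-55296224) had its lowest value, 72.7, in p30 with DMSO and its highest, 93.1, in p42 with Tm. The upstream region with 3 E-boxes (chr17:55238215-55239293) lay between 78.9 and 88.4 in 5 lists and highest in p42 with DMSO, and the intron region with 1 E-box (chr17:55294256-55294791) between 80.9 and 89.4.

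A further region downstream of HLF, 30.0 kb from its nearest start site (chr17:55348712-55349033) was at 71.0 and 81.7 in EV, 58.9 and 61.2 in p30, and 80.1 and 60.2 in p42 with DMSO and Tm, so that the order of the lines differed between the treatments. Upstream of HLF, a region at chr17:55263599-55263759 was at 58.7 in p30 with Tm, at 3.0 to 27.7 in 3 lists and absent from 2. Near an inner start site of HLF, a peak was found in p30 with Tm alone, at 20.9. A distant upstream region was at 51.1 in EV with DMSO and at 8.8 to 21.0 in 3 other lists.

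Around DBP, the regions with the highest ranks belonged to neighbours. The region at the RPL18 and SPHK2 promoters had a median percentile of 97.1, and a CA11 intron region 7.6 kb upstream of DBP one of 96.8. Within DBP, the inner start site region with the E-boxes (chr19:48634453-48634710) lay between 67.2 and 79.4. The region 254 bp downstream of the nearest outer start site (chr19:48636912-48637146), in an exon of DBP, was at 30.6 and 26 in EV, 12.9 and 0.8 in p30, and 49.3 and 26.4 in p42 with DMSO and Tm. It was lowest in p30 and lower with Tm in each line, with 14 to 26 tags.

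A region in an intron of SPHK2, 7.3 kb from the nearest DBP start site (chr19:48627195-48627329), ranked higher in both p30 lists than in the other lists that had it. It was at 3.6 and 11.9 in EV, 54.4 and 74.3 in p30, and 28.5 in p42 with Tm, with no peak in p42 with DMSO. The tags were 7, 8, 14, 19 and 10, and the scaled value of 8.2 (5.0 to 12.9) in p30 with Tm overlaps that of 3.2 (1.4 to 6.3) in EV with Tm. An AP-1 match lies 14 bp from its summit.

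Some DBP regions had a peak in only part of the lists. A region at chr19:48635491-48635813, in an exon of DBP and within 1000 bp of a start site, had a peak in EV with Tm at 40.1, in p42 with DMSO at 37.8 and in p42 with Tm at 46.9, and no peak in the p30 lists or in EV with DMSO. In SEC1P, a pseudogene upstream of DBP, a region lay between 41.1 and 63.0 in the 6 lists and another was at 47.4 in p42 with DMSO, 28.2 in p42 with Tm and 4.6 in EV with DMSO, with no peak in the other 3. The region found in both p42 lists alone was at 47.4 with DMSO and 21.2 with Tm. A SEC1P exon region had a median percentile of 96.3.

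TEF had 3 start sites, and the region at the first ranked lower than the one at the second in every list. The region over the first start site (chr22:41367147-41367730) was at 67.3 and 72.5 in EV, 83.2 and 62.9 in p30, and 74.4 and 60.3 in p42. A second region just upstream of it (chr22:41366767-41366913) was at 0.3 and 25.8 in EV, 48.5 and 53.6 in p30, and 41.5 and 55.1 in p42. It was higher in every p30 and p42 list than in either EV list, with 10 to 11 tags against 5 and 7. Scaled to depth, 2.2 (0.7 to 5.2) in EV with DMSO and 4.1 (2.1 to 7.4) in p30 with DMSO overlap. The TEF inner promoter held 3 E-boxes, 1 of them 43 bp from the summit.

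The strongest region outside the TEF promoters was 21.0 kb from the nearest start site, downstream of the gene (chr22:41403715-41404269), between 94.4 and 99.0 in the 6 lists. Farther downstream, a region at chr22:41413018-41413214 was at 27.6 and 57.7 in EV, 47.3 and 4.3 in p30, and 26 in p42 with DMSO, with no peak in p42 with Tm. In EV with Tm alone there was a peak just downstream of TEF at 44.4 and one near an inner start site at 25.2. A region 46.8 kb downstream was found in EV with Tm at 42.4 and in p30 with DMSO at 8.8.

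D-box sites were not frequent near the summits. Within 100 bp of the summit, 0 of the 89 regions had TTACGTAA or TTATGTAA on either strand, which allows a share of up to 3.37%, and 1.24% of all regions had one. Anywhere in the region, 2 of 89 (2.25%, against 1.18%) had one, among them the NFIL3 promoter region. The hybrids TTACGCAA and TTATGCAA were found near 2 summits (2.25%, against 1.3%), both at NFIL3. Near the summits, E-boxes were found in 5 of 89 (5.62%, against 3.14%) and AP-1 matches (TGACTCA or TGAGTCA) in 9 (10.1%, against 9.48%). The C/EBP letters TTGCACAA, TTGCGCAA, TTGTACAA and TTGTGCAA were found near 0 summits, with the same limit of 3.37%, and near 1.85% of all. The E-box regions were at both TEF and DBP inner start sites, upstream of HLF and in an HLF intron, each in all 6 lists, and in 1 NFIL3 region found in the p42 lists alone.

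All 4 genes had entries among 35116 RefSeq promoter sequences (250 bases before to 50 after a start site), 7 in all. Both TEF promoters held CACGTG, which 7.26% of all promoters did, and the upstream NFIL3 promoter held the hybrid TTACGCAA, which with TTATGCAA was in 1.00% of all. None held a D-box (1.01% of all) or an ATF4 match (0.866%).

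For p42 against p30 in DMSO, the question the study put to these cells, 17 of the 89 regions were called in p42 only (19.1%, with 12.3 to 28.5 as the 95% Wilson interval), against 25.0% of all regions. For p30 only there were 10 (11.2%, 6.22 to 19.5), against 11.8%. NFIL3 held 8 of the 17 and 1 of the 10. The order turned with the same number of peaks in each list, at 10 in p42 only and 14 in p30 only (11.2% and 15.7%), and with a threshold scaled to the shallowest list the counts were 13 and 14. Of the 54 regions with a peak in both, 5 (9.26%) ranked at least 20 points higher in p42, against 18.2% of all, and 6 (11.1%) in p30, against 8.23%. In Tm, 14 of 89 (15.7%, against 17.5%) had a peak in p42 only and 6 (6.74%, against 10.1%) in p30 only.

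Against EV in DMSO, p42 had 21 regions that EV lacked (23.6%, against 27.6%), and EV had 3 that p42 lacked (3.37%, against 8.74%). For p30 there were 16 (18%, against 14.6%), and EV had 5 that p30 lacked (5.62%, against 8.91%). The p42 and p30 comparisons share the EV list. In each of these presence comparisons between lines the interval of the member share included the share over the series. With the same number of peaks in each list, p42 had 11 regions that EV lacked and EV had 10 that p42 lacked, so the excess in p42 was not kept.

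The ranks of regions with a peak in both lists differed from the series in 2 of these comparisons. Of 50 regions with a peak in EV and p42 with DMSO, 5 (10%, with 4.35 to 21.4 as the 95% Wilson interval) ranked at least 20 points higher in p42, against 22.8% of all, and 4 (8%, against 6.60%) in EV. Of 46 with a peak in p30 and p42 with Tm, 2 (4.35%, 1.20 to 14.5) ranked higher in p42, against 16.5% of all, and 4 (8.70%, against 8.84%) in p30. In both comparisons the share higher in p42 lay below that of the series, outside the interval. A region near the top of a list cannot rank 20 points higher in another, and member regions started higher. Their median percentile was 70.0 in EV with DMSO and 70.4 in p30 with Tm, against 51.1 and 51.7 for all regions. How far this lowered the shares was not tested. Of 48 with a peak in EV and p30 with DMSO, 6 (12.5%, against 13.4%) ranked higher in p30 and 3 (6.25%, against 6.82%) in EV. Regions of one window share their neighbourhood, and the intervals cover counting error only.

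With tunicamycin the counts fell in the isoform lines and rose in EV. In p42, 14 regions (15.7%, against 21.6%) had a peak with DMSO and none with Tm, and 3 (3.37%, against 9.08%) the reverse. In p30 these were 17 (19.1%, against 15.2%) and 5 (5.62%, against 8.56%). In EV they were 4 (4.49%, against 10.1%) and 10 (11.2%, against 11.7%). The estimated depth moved the same way, by -4540000 tags in p42, -3450000 in p30 and 2880000 in EV, and its part in the counts was not tested.

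Among regions with a peak under both treatments, 3 of 57 (5.26%, against 5.44% of all) ranked at least 20 points higher with Tm in p42 and 8 (14%, against 15.9%) lower. In p30, 2 of 47 (4.26%, against 6.31%) ranked higher and 6 (12.8%, against 13.5%) lower. In EV, 7 of 49 (14.3%, against 11.5%) ranked higher, 4 of them at NFIL3, and 3 (6.12%, against 8.15%) lower. These shares stood near those of the whole series.

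**Figure D3:**
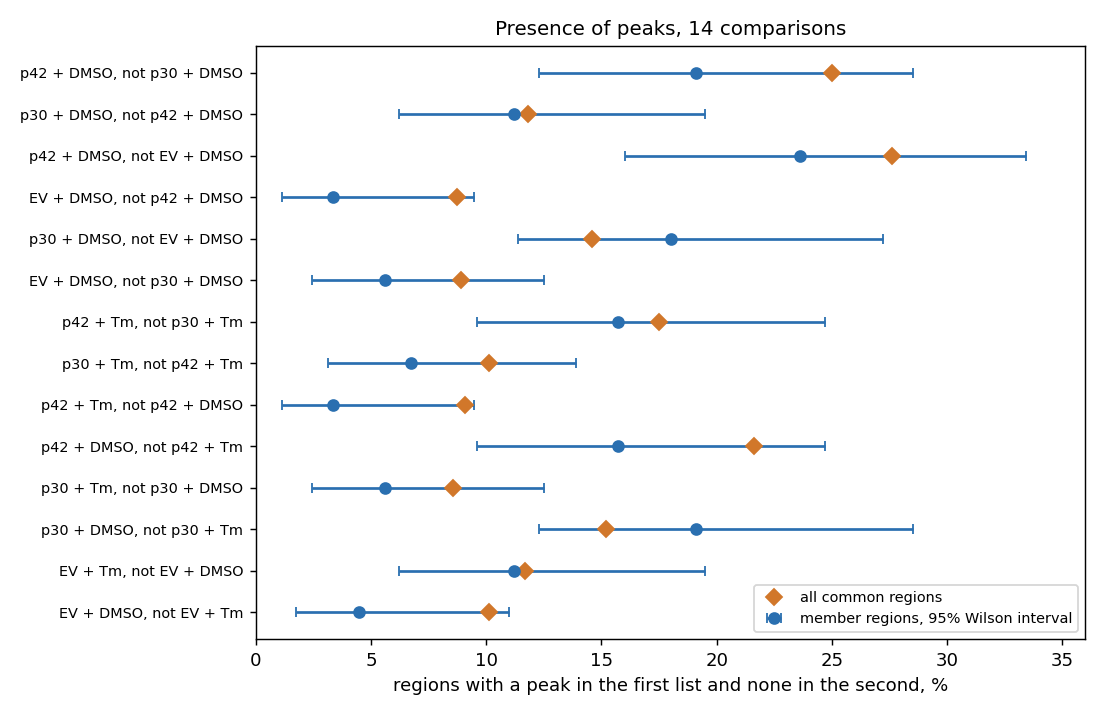
Share of regions with a peak in the first list and none in the second (horizontal axis, %) for 14 comparisons (vertical axis), with 95% Wilson intervals for the 89 member regions and diamonds for all 355515 regions. The member shares run from 3.37 to 23.6%, and every diamond lies within the interval of its comparison.

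Of 20 other clock genes, all had a promoter peak in 5 lists and 19 in p42 with DMSO, where RORB had none. The core activators CLOCK and BMAL1 had promoter percentiles of 78.4 to 86.6 and 75.9 to 86.0, and the repressors PER2 and CRY2 of 95.5 to 98.8 and 95.9 to 97.9. These genes do not stand for the whole set of 20. PER3 was at 93.6 to 98.6, CRY1 at 93.5 to 96.0, PER1 at 85.1 to 92.8, BHLHE40 at 71.4 to 78.9 and BHLHE41 at 24.8 to 63.3. NR1D1, which encodes REV-ERBα, a repressor of NFIL3 transcription in the clock, was at 64.8 and 62.4 in EV, 76.7 and 57.4 in p30, and 73.3 and 55.8 in p42 with DMSO and Tm. A promoter region open in p42 and not in p30 with DMSO was found for 5 of the 20 (24.4% of coding genes), and the reverse for 5 (15.3%). With Tm, 5 of the 20 gained such a region in p42 and 7 lost one (12% and 22.4% of coding genes).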

How the data were processed

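ATAC-seq of KO-52 cells was available as 6 peak lists, 1 per condition, called on pooled replicates. Per the labels and methods, the authors used Trim Galore 0.6.6 for trimming, Bowtie2 2.4.4 for alignment to hg38, Picard for duplicates and MACS2 for peaks. The deposited fold enrichment of a peak is the ratio of the summit pileup to the local background. The deposited −log10 p and −log10 q refer to the same background, and the lists end at a q-value of 0.05. None is normalized between lists, so ranks within a list were compared. Ranks did not remove every difference between lists. Over all regions with a peak in both lists, the median percentile difference was 6.0 points for p42 over EV in DMSO. For p42 over p30 in DMSO it was 3.2 points. A shift of reads for the transposase cut is not given in the sources used here.

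The fold and −log10 p were solved for whole tags at the summit, which came out whole for 100% of peaks, a step tested on 4435 simulated peaks (100% recovered). The simulated peaks were made with the same formula, so this checks the arithmetic only. Their range of backgrounds was narrower than in the member regions, where the background reached 6.97 tags in p42 with DMSO. Depth was estimated from the lowest background. Peaks overlapping by at least 1 bp were merged into common regions. Genes are from GENCODE 44. Motifs were exact letters on both strands, within 100 bp of the summit. The C/EBP and AP-1 words each include a pair that are reverse complements and so match the same letters, which counted once per region, and no full match is shared between different motifs. The genes, gene lists and comparisons were chosen with earlier results of these data known. Regions named are those within 1000 bp of a start site, and per gene the 3 others strongest in all 6 lists, the 3 strongest absent from a list, the 2 with the widest range, and those with a D-box or hybrid near the summit, to which regions chosen after their values were seen were added where a motif or a count turned on them. Python 3.11.15, scipy 1.17.1 and matplotlib 3.10.9 were used. Read counts per replicate were not used here. Some regions and a marker gene are not reported here.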

Additional observations from a re-analysis of the deposited data

Results flagged for a closer look

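The net change after tunicamycin in the number of member regions with a peak differed in sign between lines: 6 in EV, -12 in p30 and -11 in p42. The difference was not tested. Over all regions the net changes were 5663, -23725 and -44404, and the estimated depth changed by 2880000, -3450000 and -4540000 tags.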

How the results depend on the processing

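No paired analysis was possible because each list pools its replicates, and for the same reason no replicate could be left out. The shares of member regions with a peak in 1 list and none in another moved most with the threshold: with a −log10 q of at least 10 where the peak was present, they were 1.12% for p42 against EV and for p30 against EV in DMSO and 0 for the other 12 comparisons, so nearly all these peaks lay below that level. With the same number of peaks in each list, p42 only fell to 11.2% against p30 in DMSO while p30 only rose to 15.7%, which turned their order, and p42 only fell to 12.4% against EV, 8.99% against p30 in Tm and 6.74% against p42 with Tm, EV only against p42 was 11.2%, and p30 with DMSO only against p30 with Tm was 12.4%. With a threshold scaled to the shallowest list, EV only against p42 was 6.74% and p42 with Tm only against DMSO 7.87%, and the latter was 5.62% with regions merged from the 2 lists. With the gene body plus 2 kb, EV only against p42 and p42 with Tm only against DMSO were 0, p30 with Tm only against p42 with Tm and p42 with DMSO only against Tm 4%, and p30 with Tm only against DMSO 12%. With 100 kb, EV only against p42 and p42 with Tm only against DMSO were 5.56%, and EV with DMSO only against Tm 6.94%. Apart from the threshold and the window, the cause of these moves was not tested. D-boxes were in 2.25% of regions when searched over the whole region and in 0 within 50 bp of the summit.

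Settings added after the values were seen left the NFIL3 intron region 4.4 kb inside the gene higher with tunicamycin in all 3 lines: by 21.2 to 38.4 points by fold, 26.8 to 57.0 with equal list lengths and 14.7 to 33.7 among regions in all 6 lists, where EV was below 20 points. Promoter percentiles changed by -26.7 to 2.7 points when ranked by fold by -6.7 to 0.0 with equal list lengths and by -26.9 to -2.2 among regions in all 6 lists, and the promoter counts stayed within 1.5 times at 500 and 2000 bp. With 4 to 55 tags at a summit, single regions are limited by depth.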
